A study of Arabidopsis thaliana with 8 samples.

Results

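Expansins are a family of small secreted wall proteins. The members described here are 34 genes of Arabidopsis thaliana, taken by locus identifier from a deposited table of 33201 gene rows: 25 alpha-expansins (EXPA), 5 beta-expansins (EXPB), 3 expansin-like A genes (EXLA) and 1 expansin-like B gene (EXLB1). All 34 had a row of their own, and all 34 identifiers carried the family name in the RefSeq annotation. Of these 34 genes the authors tested 22 and left 12 untested.

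Expansins bind the cell wall and loosen it without cutting its polymers, by easing the contact between cellulose and the polysaccharides around it. They act best in an acidic wall, so wall loosening is tied to the plasma membrane proton pumps that acidify it. Alpha-expansins are known for acid-induced wall extension in growing plant cells, and EXPA7 and EXPA18 are known as expansins of root hair cells. The expansin-like proteins share the fold of the family, and wall-loosening activity has not been established for them.

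The samples were cells of Col-0 roots from seedlings grown for 5 days, made into protoplasts and sorted by the fluorescence of a WOX5::GFP reporter. WOX5 is a homeobox gene whose promoter is active in the quiescent center, a small group of rarely dividing cells that the root's stem cells surround. Each genotype had 4 libraries: wild type, and a mutant of PERIANTHIA (PAN), a bZIP transcription factor. Both genotypes carried the reporter, and the sources used here do not name the pan allele. PAN itself (AT1G68640) stood at 19.996 FPKM in wild type against 0.265 FPKM in pan (q = 0.0386 by the authors' deposited table). The table gives 1 pooled level per genotype, so no value below has an error of its own. The number of fragments per library is unknown. No column header names the unit of the levels. It is read here from the column layout as FPKM, fragments scaled to transcript length and to library size. Only the authors' q-value, their p-value adjusted over all tested genes, speaks to the spread between replicates, and a gene is called here at a q under 0.05.

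The root hair element is a short sequence known from promoters of root hair genes, including those of EXPA7 and EXPA18. The promoter stretches of the called expansins EXPA7, EXPA18 and EXPA6 are shown first, because they match a loose pattern for its core. Each is the 250 bases before the annotated start of the gene, 5′ to 3′ on the strand of the gene, from the RefSeq genome and annotation of assembly TAIR10.1. EXPA7 and EXPA18 rose in the pan mutant and EXPA6 fell. The choice for display was made after the values and matches were seen. By size of change among called members, EXPA11 and EXPA17 would have been shown for the rises, and EXPA6 and EXPA4 for the falls. Capitals mark matches on either strand to the core searched (TG, then 4 or 5 bases of any kind, then CACG) or to TGACG, the core of sites bound by TGA-type bZIP factors.
EXPA7 (chr1:4276255-4276504, plus strand): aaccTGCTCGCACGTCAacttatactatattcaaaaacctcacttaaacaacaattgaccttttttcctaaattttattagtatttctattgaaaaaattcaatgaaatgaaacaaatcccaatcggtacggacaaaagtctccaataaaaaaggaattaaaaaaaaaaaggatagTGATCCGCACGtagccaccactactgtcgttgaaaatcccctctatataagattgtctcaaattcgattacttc
EXPA18 (chr1:23331313-23331562, plus strand): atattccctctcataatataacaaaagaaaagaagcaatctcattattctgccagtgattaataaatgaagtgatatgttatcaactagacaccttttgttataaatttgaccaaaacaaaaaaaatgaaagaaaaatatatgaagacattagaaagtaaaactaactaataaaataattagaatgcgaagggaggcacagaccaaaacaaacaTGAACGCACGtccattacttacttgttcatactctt
EXPA6 (chr2:12433797-12434046, minus strand): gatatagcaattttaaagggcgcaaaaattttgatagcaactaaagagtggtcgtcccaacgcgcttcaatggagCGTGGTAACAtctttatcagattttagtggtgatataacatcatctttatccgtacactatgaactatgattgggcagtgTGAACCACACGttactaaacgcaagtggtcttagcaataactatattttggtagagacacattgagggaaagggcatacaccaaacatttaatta

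In EXPA7 the loose pattern matched from 246 to 237 and from 74 to 64 bases before the gene start. TGACG on the opposite strand, from 238 to 234, overlapped the first of these. In EXPA18 the pattern matched once, from 36 to 27 bases before the start. AT1G62978, an annotated gene of the opposite strand, overlaps that window. In EXPA6 the pattern matched from 95 to 85 bases before the start and, on the opposite strand, from 175 to 166. Matches to this loose pattern therefore stood in genes that moved in opposite directions. The base just before CACG, left free in the search, was G in each match of EXPA7 and EXPA18. It was C or A in the matches of EXPA6, which are matches to the loose pattern only. No link or lack of link to direction is read from these matches. Across the family 3 of 34 windows held a match to the pattern, against 9.02% of 27443 protein-coding genes. TGACG was in 6 of the 34 windows, against 18.6% of all, and CACGTG, which can overlap the core through its CACG, was in 1 of 34, against 6.49%. These shares lie near those of all genes. A match describes letters only and is no evidence of binding. The windows of the other 5 called members, EXPA4, EXPA11, EXPA15, EXPA17 and EXPB1, held none of these letters.

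Of the 22 tested expansins, 5 rose in the pan mutant (EXPA7, EXPA11, EXPA17, EXPA18 and EXPB1) and 3 fell (EXPA4, EXPA6 and EXPA15). The 8 called members are 36.4% of the tested ones, beside 17.8% of 19789 tested genes called in either direction. In single directions, 22.7% of the tested expansins were higher, beside 8.01% of all tested genes, and 13.6% were lower, beside 9.83%. Calls were more frequent among well expressed genes. At a mean of at least 5 FPKM over both genotypes, a limit taken up for this purpose after the data were seen, 8 of 16 expansins were called (50.0%), beside 23.5% of 13285 genes. Of these, 5 (31.2%) were higher, beside 10.7% of the genes at this level, and 3 (18.8%) were lower, beside 12.8%.

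The median log2 change (pan over wild type) of the 22 tested expansins was 0.10, beside -0.17 for every tested gene whose change was finite. This median hides movement in both directions: 11 of the 22 had a positive change and 11 a negative one, from -3.92 for EXPA6 to 4.29 for EXPA8, and centring on the median of all tested genes turned EXPA13 and EXPA14 to positive values. By subfamily, 7 of 16 tested alpha-expansins (43.8%) and 1 of 2 tested beta-expansins (50.0%) were called, beside 17.8% of all tested genes. None of the 3 expansin-like A genes, nor EXLB1, was called in the authors' deposited table. Beside a share of 17.8%, these genes are too few for that to set them apart. That table holds no replicate values, so this count of 0 has no second test beside it; none of these 4 genes had an unadjusted p under 0.05.

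**Figure D1:**
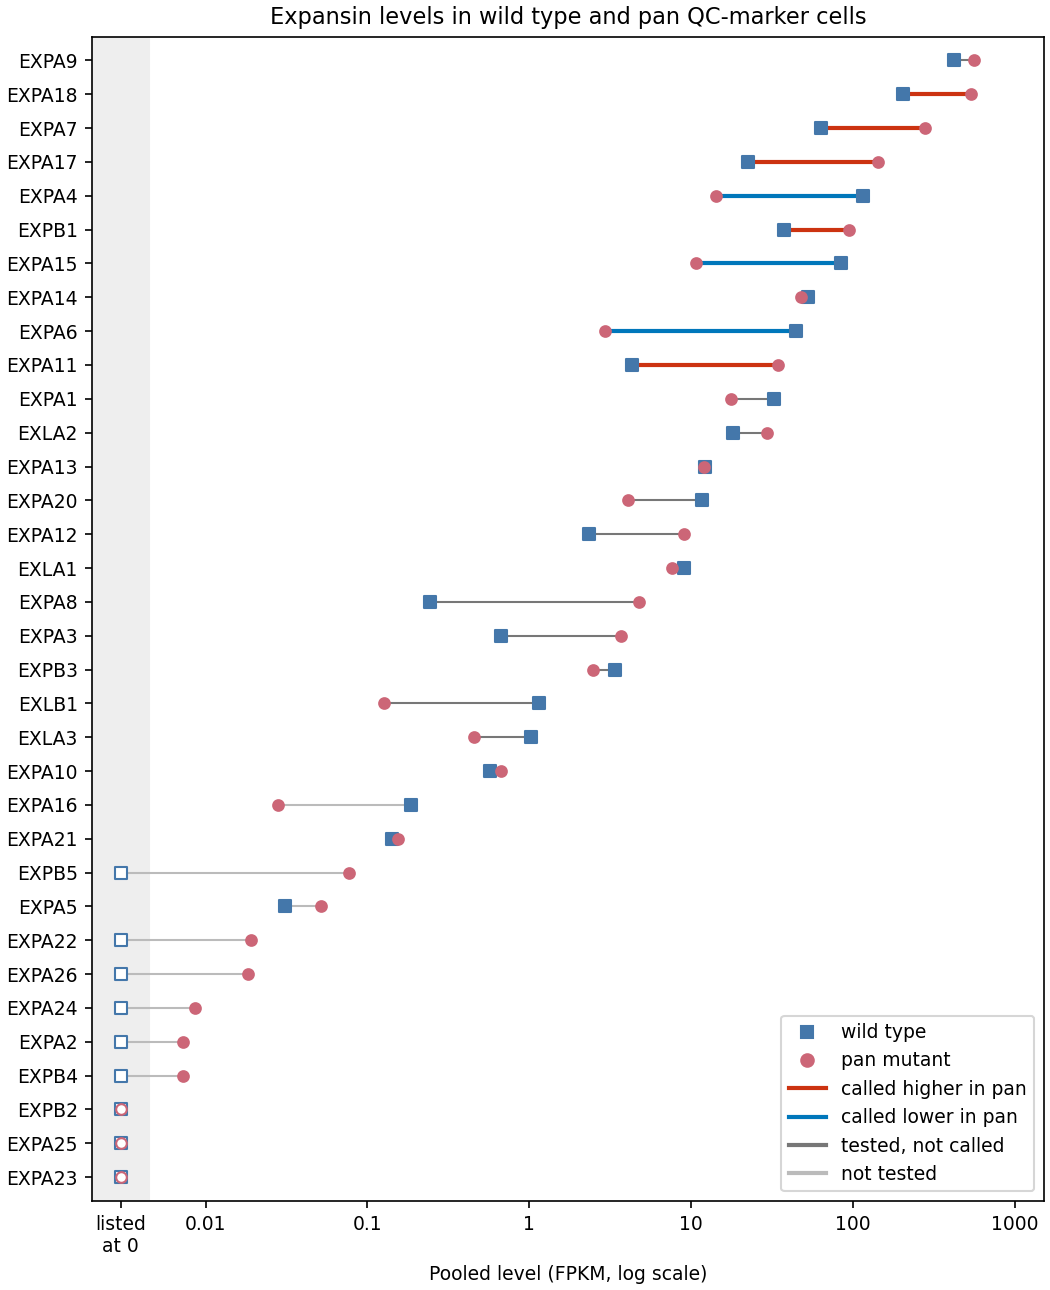
Pooled level of each of the 34 expansins (FPKM, log scale) in wild type (squares) and the pan mutant (circles), joined by a line coloured by the authors' call. Open symbols in the grey strip are levels listed at 0. Long red lines mark the rises of EXPA7, EXPA11 and EXPA17, and long blue lines the falls of EXPA4, EXPA6 and EXPA15.

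The expansins of root hair cells rose. EXPA7 (AT1G12560, chromosome 1, 4276519 to 4277899, TAIR10, plus strand), needed for normal root hair growth, stood at 63.0 FPKM in wild type against 279 FPKM in pan. The authors' deposited table gives this a log2 change of 2.15 (4.43-fold) with q = 0.00202. EXPA18 (AT1G62980, chromosome 1, 23331676 to 23333110, plus strand), its closest relative in coding sequence, stood at 204 FPKM in wild type against 535 FPKM in pan. The change of EXPA18 was smaller on the log2 scale, 1.39 (2.62-fold), and its q of 0.0473 in the authors' deposited table lay just under the threshold. Both genes were thus well expressed in sorted wild type cells too, EXPA18 at rank 2 and EXPA7 at rank 5 among the expansins. EXPA7 overlaps the annotated end of AT1G12570 on the other strand, which was listed at 0.0222 FPKM in wild type against 0.121 FPKM in pan, far below EXPA7.

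EXPA17 and EXPA11 rose by larger factors from lower levels. EXPA17 (AT4G01630, chromosome 4, 700653 to 701527, plus strand), known for its part in lateral root formation, stood at 22.5 FPKM in wild type against 142 FPKM in pan (log2 2.66, 6.33-fold, with q = 0.00116 by the authors' deposited table). EXPA11 (AT1G20190, chromosome 1, 6998489 to 6999817, minus strand) stood at 4.33 FPKM in wild type against 34.3 FPKM in pan. Its log2 change of 2.98 (7.91-fold, q = 0.00896 in the authors' deposited table) was the largest rise among the called expansins. Among the members, EXPA11 and EXPA17 were each other's nearest relative in coding sequence, at 66.2% identity.

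EXPB1 (AT2G20750, chromosome 2, 8941119 to 8942689, plus strand) was the beta-expansin that rose. It stood at 37.5 FPKM in wild type against 94.1 FPKM in pan; the authors' deposited table puts the log2 change at 1.33 (2.51-fold) with q = 0.0356. Its closest relative EXPB3, at 76.0% identity, stood at 3.37 and 2.47 FPKM and was not called (q = 0.808 in the authors' deposited table). Whether EXPB1 and EXPB3 differ in their change was not tested.

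The 3 alpha-expansins that fell were among the more abundant ones in wild type. EXPA4 (AT2G39700, chromosome 2, 16543832 to 16545584, minus strand) stood at 114 FPKM in wild type, rank 3 in the family, against 14.2 FPKM in pan. EXPA15 (AT2G03090, chromosome 2, 916854 to 918643, minus strand) stood at 84.2 FPKM in wild type against 10.7 FPKM in pan. EXPA6 (AT2G28950, chromosome 2, 12431341 to 12433595, minus strand) stood at 44.5 FPKM in wild type against 2.93 FPKM in pan. The authors' deposited table gives log2 changes of -3.00 for EXPA4, -2.97 for EXPA15 and -3.92 for EXPA6, falls of 8.01-, 7.84- and 15.2-fold, each with q = 0.00116. These 3 genes and EXPA17 share the lowest p in the table, 5e-05, with 853 called genes in all, so their order by p is not resolved. EXPA4 and EXPA6 were close in coding sequence (76.3% identity), and the closest relative of EXPA4, EXPA16 (80.2%), was almost silent, at 0.185 FPKM in wild type against 0.0282 FPKM in pan, and was left untested.

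**Figure D2:**
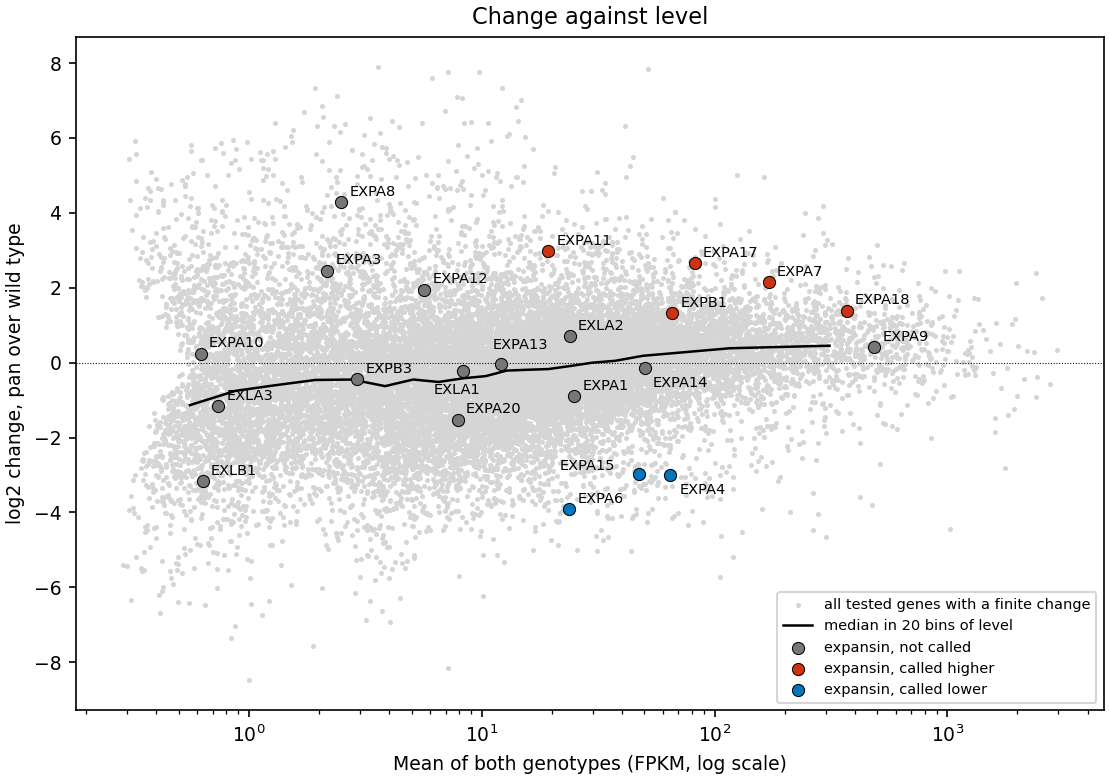
log2 change (pan over wild type) against the mean level of both genotypes (FPKM, log scale) for each tested gene whose change was finite (grey), with the median in 20 bins of level (black line) and the 22 tested expansins. The line climbs with level, from -1.135 in the lowest bin to 0.452 in the highest, and the called expansins lie from -3.92 to 2.98.

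Among the other members with at least 10 FPKM in either genotype, 6 were not called. EXPA9 (AT5G02260, chromosome 5, 463158 to 465246, plus strand) was the most abundant expansin in both genotypes, at 416 FPKM in wild type against 553 FPKM in pan. Its log2 change of 0.41 (q = 0.388 in the authors' deposited table) did not pass, and centring within bins of like level turned it to -0.04. EXPA14, which is known to act in lateral root formation, stood at 52.4 and 47.7 FPKM (log2 -0.14, q = 0.852), and EXPA13 at 12.2 and 11.9 FPKM (log2 -0.03, q = 0.972), by the authors' deposited table. For these 3 genes the levels of the genotypes lay close together, though a q above the threshold does not show that they were equal.

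EXPA1, known for a role in stomatal opening, stood at 32.5 FPKM in wild type against 17.5 FPKM in pan (log2 -0.89 and q = 0.187 by the authors' deposited table). EXPA20 stood at 11.7 and 4.07 FPKM (log2 -1.52 and q = 0.311 by the authors' deposited table); its row covers the same locus as the row of AT4G38215, a noncoding RNA of the other strand, so its value is uncertain. EXLA2 was the most abundant expansin-like gene, at 18.2 and 29.5 FPKM (log2 0.70 and q = 0.387 by the authors' deposited table). These 3 genes differed in their pooled levels without passing the authors' test.

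The remaining 8 tested members stayed under 10 FPKM in both genotypes and none was called: EXPA3, EXPA8, EXPA10, EXPA12, EXPB3, EXLA1, EXLA3 and EXLB1. Their log2 changes ran from -3.17 to 4.29 in the authors' deposited table. The extremes, singled out after their values were seen, were EXLB1, at 1.14 FPKM in wild type against 0.127 FPKM in pan (q = 0.236), and EXPA8, at 0.242 and 4.72 FPKM (q = 0.212), both in the authors' deposited table. EXPA8 thus had the largest log2 change of the family, on a wild type level near 0, without passing the test. EXPA10, an expansin of leaf growth, was near 0 in these root cells, at 0.570 and 0.671 FPKM. The row of EXLA1 covers the same locus as that of AT3G45980, a histone H2B gene of the other strand listed at 170 and 156 FPKM, so the level of EXLA1 (8.96 and 7.63 FPKM) is uncertain.

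The 12 untested members lay at or near 0. They were EXPA2, an expansin of seed germination, EXPA5, known for brassinosteroid-related growth, EXPA16, EXPA21 to EXPA26, EXPB2, EXPB4 and EXPB5. None exceeded 0.185 FPKM in wild type or 0.155 FPKM in pan. EXPA21 to EXPA26 form a tandem cluster on chromosome 5, between 15726378 and 15740514, and their summed level was 0.142 FPKM in wild type against 0.202 FPKM in pan. Within the cluster EXPA22 and EXPA26 share 97.7% of their coding sequence and EXPA23 and EXPA25 97.1%, with identical stretches of up to 208 and 248 bases, so reads of these pairs cannot be told apart with certainty. No called member shared an identical stretch of more than 33 bases with another member.

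The make-up of the expansin pool differed between the genotypes. Summed over the 34 genes, the level was 1136 FPKM in wild type against 1805 FPKM in pan, a ratio of 1.59. The sum over all rows of the table differed by a ratio of 1.14. This is no comparison at like level: EXPA9, EXPA18 and EXPA7 held 60.2% of the expansin sum in wild type and 75.7% in pan. In the highest of 20 bins of level, the median log2 change of tested genes was 0.452. After centring within bins, the log2 change was 1.69 for EXPA7, 0.94 for EXPA18 and -0.04 for EXPA9. The 5 members that rose made up 29.2% of the summed expansin level in wild type and 60.1% in pan. The 3 that fell made up 21.3% in wild type and 1.54% in pan. Both groups were chosen by their direction in these same values, so the direction of these shifts largely follows from the choice. EXPA9 alone held 36.6% and 30.6%, and EXPA18 18.0% and 29.6%. In the order of levels, EXPA9 and EXPA18 held ranks 1 and 2 in both genotypes. Below them EXPA7 had rank 5 in wild type and 3 in pan, and EXPA17 ranks 10 and 4. EXPA4 had ranks 3 and 10, EXPA15 ranks 4 and 12, and EXPA6 ranks 7 and 18. These shares and positions describe pooled values and were not tested.

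**Figure D3:**
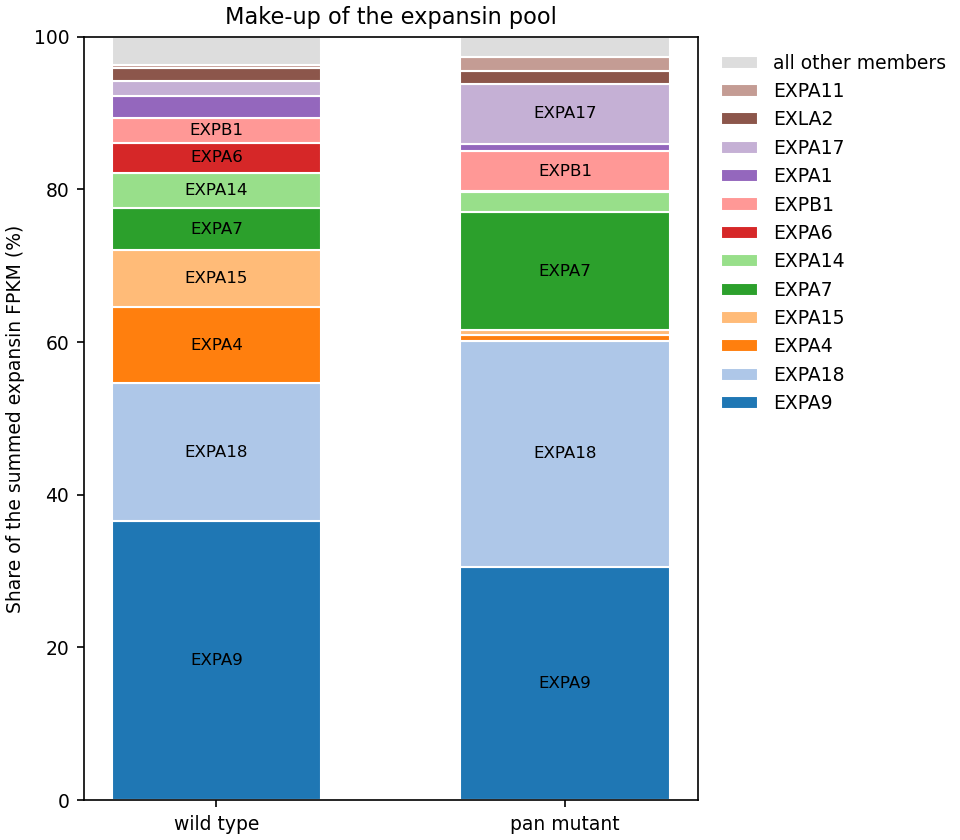
Share of the summed expansin level (percent of FPKM over the 34 genes) held by each member in wild type and in the pan mutant; members under 1.5% in both genotypes are joined in grey. The bands of EXPA4, EXPA15 and EXPA6 are thin in pan, while those of EXPA7, EXPA17 and EXPA18 are wider.

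Other wall-loosening genes moved in both directions as well. The XTH family encodes xyloglucan endotransglucosylases and hydrolases, which cut and rejoin xyloglucan in the wall. Of 28 tested members of 33, 6 rose (XTH12, XTH13, XTH14, XTH17, XTH26 and XTH30) and 5 fell (XTH9, XTH15, XTH16, XTH28 and XTH31), together 39.3% of the tested members, beside the same 17.8% of all tested genes. The share called higher was 21.4% and the share called lower 17.9%, beside 8.01% and 9.83% of all tested genes. The median log2 change was -0.48. XTH26 stood at 1.79 FPKM in wild type against 60.8 FPKM in pan (log2 5.09), and XTH13 at 6.96 and 99.2 FPKM (log2 3.83), as the authors' deposited table lists them. XTH9 stood at 41.8 and 2.94 FPKM (log2 -3.83), and XTH16 at 9.55 and 0.675 FPKM (log2 -3.82), as the authors' deposited table lists them. XTH12 and XTH13 are neighbouring related genes whose shared sequence was not measured here, so reads may be split between them.

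Of the 11 plasma membrane proton pumps, 9 were tested, 3 rose (AHA1, AHA2 and AHA7) and 2 fell (AHA5 and AHA8). These are 33.3% higher and 22.2% lower, 55.6% called in all, beside 8.01%, 9.83% and 17.8% of all tested genes. AHA2, a major pump of the root, stood at 185 FPKM in wild type against 805 FPKM in pan (log2 2.12), and AHA7 at 1.94 and 87.1 FPKM (log2 5.49), as the authors' deposited table lists them. AHA5 stood at 11.4 and 2.33 FPKM (log2 -2.29), and AHA8 at 7.56 and 1.62 FPKM (log2 -2.22), as the authors' deposited table lists them. The summed level of the pumps was 309.9 FPKM in wild type against 1072 FPKM in pan, most of it AHA2 and AHA1. The median log2 change of the 9 tested pumps was -0.93, opposite in sign to the change of the sum. Shared sequence among the pumps, AHA1 and AHA2 included, was not measured here, so reads may be split between related members.

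**Figure D4:**
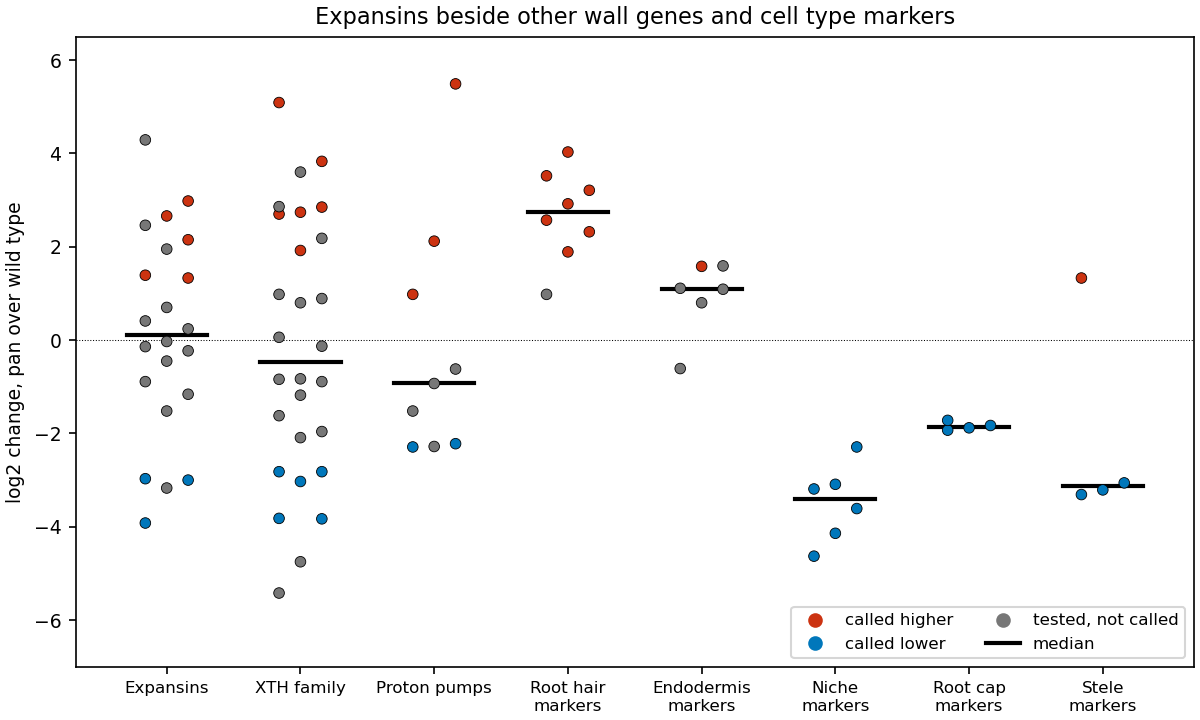
log2 change (pan over wild type) of each tested gene in the expansin, XTH and proton pump families and in 5 lists of cell type markers, coloured by the authors' call, with the median of each list as a bar. Expansins, XTH genes and pumps hold called genes on both sides of 0; root hair markers lie above 0, and niche and root cap markers below it.

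Markers of the niche and of other cell types were called beside the expansins; the counts below stand against 8.01% of all tested genes called higher and 9.83% called lower. Of 8 root hair markers (RSL4, RHD6, RSL2, RHD2, ADF8, LRX1, COW1 and PRP3), 7 were called higher and RHD6 was not called; their summed level was 314 FPKM in wild type against 1766 FPKM in pan, with a median log2 change of 2.74. All 6 niche markers (WOX5, PLT1, PLT2, BBM, SCR and AGL42) were called lower, with sums of 573 and 48.6 FPKM. WOX5, whose promoter drives the sort reporter, stood at 205 and 8.27 FPKM, and SCR, at 29.9 and 6.08 FPKM, changed least among these 6. All 4 root cap markers were called lower (sums 339.8 and 96.6 FPKM), 1 of 6 endodermis markers (16.7%) was called higher (sums 124 and 286 FPKM), and of 4 stele markers 1 was higher and 3 lower (sums 67.7 and 74.9 FPKM). No marker was listed at 0 in either genotype. In bulk samples, fewer cells of a type and less RNA per cell cannot be told apart, and the part of these markers' cells in the rises of EXPA7 and EXPA18 or the falls of EXPA4, EXPA6 and EXPA15 was not tested.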

How the data were processed

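RNA was sequenced from WOX5::GFP-sorted root cells, in 4 libraries of each genotype labelled as biological replicates. Per the labels' protocols, cDNA was amplified with a low input kit. TAIR10 is the genome build, and Cuffdiff, Cufflinks 2.1.1 and TopHat2 2.0.13 the tools, per the submitters' processing notes; settings and strand handling are not given there. The authors deposited 1 pooled value per genotype (read as FPKM), a log2 change without pseudocount, a test statistic (a score, not used), and p-values with q-values. Benjamini-Hochberg adjustment over the tested genes recomputed these q-values to within 5.25e-07.

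Members and lists were chosen with earlier results of these data known. Values, log2 change and q are given for every called expansin and every expansin with at least 10 FPKM in either genotype, and others by range; of XTH genes and pumps, values are given for the 4 called members with the largest changes. Symbols, strands, promoters and coding sequences come from RefSeq TAIR10.1, and coordinates of gene rows from the table, counted from 1. Coding identity is over a global alignment (Biopython 1.88) of the longest coding sequences. Calls were repeated with a q under 0.01 and after filters on low values, and the median with pseudocounts, filters and centring. Adjustment and motif search were tested on simulated data. Python 3.11.15 and pandas 2.3.3 were used.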

Additional observations from a re-analysis of the deposited data

Results flagged for a closer look

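Among the 12 expansins that the authors left untested, 6 have a level above 0 in pan while wild type is listed at 0. They are EXPA2, EXPA22, EXPA24, EXPA26, EXPB4 and EXPB5, and 0 show the reverse. These 6 were flagged because their rows lie outside the comparison. Their pan levels ran from 0.00721 to 0.0765 FPKM. The 1st percentile of all levels above 0 was 0.0202 FPKM in wild type against 0.00349 FPKM in pan, and 5 of the 6 lie below the wild type value, so a level of this size was seldom listed in wild type. Over all 13412 untested rows the same imbalance was 5828 against 189, so it was not particular to the expansins.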

How the results depend on the processing

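The median log2 change of the tested expansins, 0.10 as deposited, was 0.08, 0.03 and 0.00 with pseudocounts of 0.1, 1 and 5, 0.41 and 0.19 at a mean of at least 1 and 5 FPKM, 0.27 after centring on all tested genes and 0.18 after centring within 20 bins of level, and it did not change without EXPA21 to EXPA26, none of which was tested. With a q under 0.01 the expansins called higher fell from 5 to 3, since EXPA18 (q = 0.0473) and EXPB1 (q = 0.0356) were lost, the XTH genes called lower from 5 to 3, the pumps called lower from 2 to 1 and the pumps called higher from 3 to 2, without AHA1 (q = 0.0133). Where only genes with a mean of 5 FPKM or more were kept and p readjusted, the pumps called lower came to 1, AHA8 falling under the filter, and the XTH genes called higher rose from 6 to 8. The 3 expansins called lower were called under every one of these settings, and no called expansin changed its direction under a pseudocount or centring. Of the uncalled ones, EXPA13 and EXPA14 changed sign after centring on all tested genes, and EXPA9, EXPA13 and EXLA1 after centring within bins, where EXPB3 came to 0.00.

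No paired analysis was possible because the table holds 1 pooled value per genotype, and leaving out single libraries was not run for the same reason. Depth per library is unknown, so no limit of detection is given for members listed at 0.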
